A study of Mus musculus with 4 samples.

Results

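The T cell antigen receptor is read here through 10 genes: the CD3 chains CD3D, CD3E, CD3G and CD247, the constant genes TRAC, TRBC1, TRBC2, TRGC1 and TRGC2, and the pre-receptor alpha chain gene PTCRA. They were taken by gene name from a table of RNA sequencing read counts with 58735 gene rows. All 10 were in the table, and all 10 were among the 15294 genes that passed the expression filter and were tested. All 4 libraries are labelled Jurkat, a human line of leukaemic T cells grown in medium with fetal bovine serum. A pair of libraries was labelled wild-type and a pair Matr3 knock out by CRISPR-Cas9, and no further treatment, time point or clone is named. Whether the knockout is 1 clone, and whether the libraries came from separate cultures, is not stated, so the p-values rest on a spread between libraries that may be only technical.

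The receptor on most T cells pairs an alpha with a beta chain, and a smaller population pairs gamma with delta. Neither pair can signal alone: each travels to the surface with CD3 gamma, delta and epsilon and with the CD247 (CD3 zeta) homodimer, whose cytoplasmic tyrosine motifs are phosphorylated by LCK and then bind ZAP70. A receptor chain gene is assembled by joining a variable segment to a joining segment and splicing to a constant exon set. The delta genes lie inside the alpha locus, between the alpha variable and joining segments, and are cut out of an allele when alpha segments join. Before alpha is assembled, thymocytes pair beta with the invariant chain encoded by PTCRA.

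Total counts ran from 15008554 to 17477643 per library, and 1 read was worth 0.0574 to 0.0682 CPM, the depth-scaled read count used below (with TMM factors). The targeted gene does not check the labels: its row MATR3 (ENSG00000015479) had 19 and 9 wild-type reads against 42 and 61 in the knockout-labelled pair (log2 fold change 2.05, edgeR adjusted p = 2.85e-06), and an overlapping second MATR3 row had at most 5. Every direction given here is thus that of the knockout-labelled pair. Whether that pair is the same line as the wild-type pair was not tested, and the knockout and any other difference between the cells cannot be told apart. T cell markers were present in all 4 libraries, CD7 with 7131 and 5788 wild-type reads and 2668 and 2726 reads in the others, and CD5 with 1717 and 1351 against 778 and 745. Of 16 other T cell surface markers, 14 were lower and 1 higher in the libraries labelled knockout, by edgeR's quasi-likelihood test at an adjusted p of 0.05 (all genes: 32.3% lower, 33.7% higher). The coreceptor gene CD4, counted below with the signalling genes and not among these 16, was higher. Myeloid markers moved in the same libraries: 15 of 16 tested were higher and none lower, against 33.7% and 32.3% of all genes. Their summed level was 111 and 114 CPM in wild-type against 5908 and 5789 CPM. S100A8 had 0 reads in all libraries, and ELANE and CSF3R had 0 in wild-type. At least TYROBP, FCER1G and 1 of ELANE and CSF3R passed the expression filter only through the libraries labelled knockout. Such passing favours a difference and limits what the count of 15 says. The mitochondrially encoded share was 4.90% to 5.29% of counts in wild-type, against 9.27% to 9.44% for the others. The summed B cell markers were 16.2 to 18.1 CPM in wild-type, against 9.78 to 10.8 CPM for the others, with MS4A1 and CD22 at 0 reads throughout. Of the 4 B cell markers tested, 2 were lower and 2 higher (all genes: 32.3% lower, 33.7% higher), with a median log2 fold change of 1.05. The summed natural killer markers were 24.4 to 26.9 CPM and 67.8 to 68.6 CPM, with FCGR3A, KLRF1 and KLRC1 at 0 reads throughout. Most of this rise came from TYROBP, which is also in the myeloid list. The part of any of these in the receptor results was not tested. In bulk libraries, fewer cells of a type and less RNA per cell cannot be told apart.

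Of the 10 receptor genes, 8 were lower in the libraries labelled knockout (TRBC1, PTCRA, CD247, CD3D, TRBC2, CD3E, CD3G and TRGC2), 1 was higher (TRGC1) and TRAC did not pass the test. Across all genes tested, 32.3% were called lower, 33.7% higher and 66.0% either way. At least 2-fold lower were 6 of the 10, against 10.7% of all genes. The median log2 fold change was -1.36 over the 10 and 0.02 over all genes. The wild-type and knockout-labelled values did not overlap for any of the 10, which also held for 82.0% of all genes. TRGC1 passed the expression filter only through the libraries labelled knockout, and PTCRA only through wild-type. Reads in the 10 genes together made up 0.177% and 0.175% of the wild-type libraries and 0.0703% and 0.0690% of the others.

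**Figure D1:**
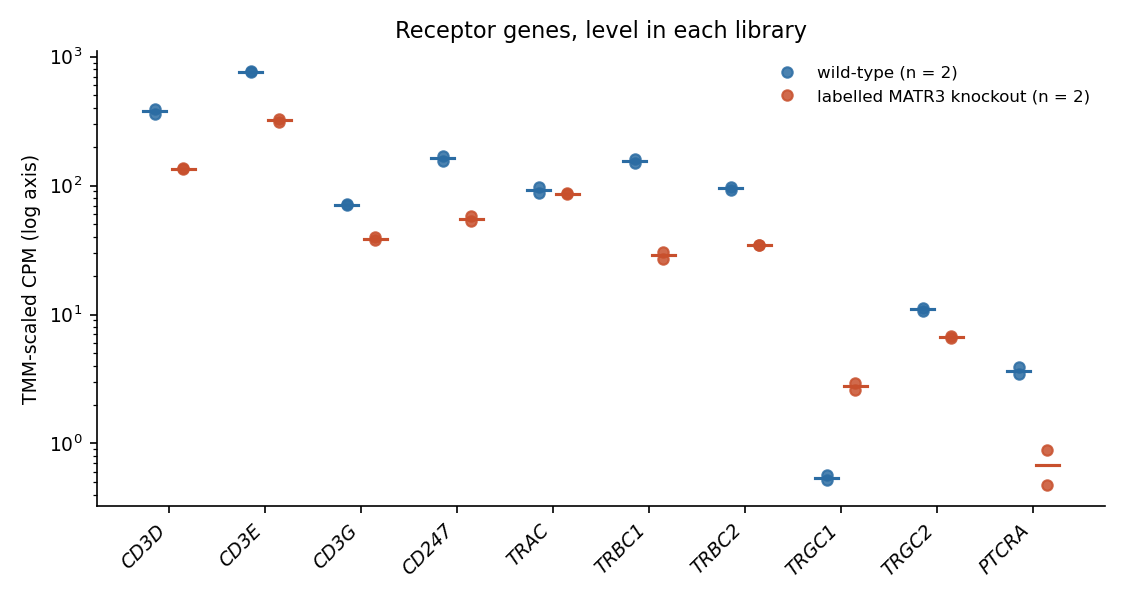
TMM-scaled CPM (log axis) of the 10 receptor genes in each of the 4 libraries, with wild-type in blue and the libraries labelled MATR3 knockout in orange; points are libraries and short lines group means. CD3E is the highest row in both groups, the groups nearly meet at TRAC, and TRGC1 is the only gene with its orange points above the blue.

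The CD3 gamma, delta and epsilon genes sit together on chromosome 11 and all fell, but by unequal amounts. Coordinates are as deposited, their assembly being not given in the sources used here. CD3D, the delta chain (ENSG00000167286, chromosome 11, 118338954 to 118342744, minus strand), stood at 395 and 357 CPM in the wild-type pair and at 133 and 138 CPM in the libraries labelled knockout. Both knockout-labelled libraries lay well under both wild-type libraries, a 2.78-fold lower mean (log2 fold change -1.47, SE 0.0730, edgeR adjusted p = 2.06e-30). CD3E, the epsilon chain and the most abundant row of the set (ENSG00000198851, chromosome 11, 118304545 to 118316175, plus strand), stood at 768 and 764 CPM in the wild-type pair and at 327 and 313 CPM in the others. The libraries of each pair lay close together, with SDs of 2.62 and 9.90 CPM (n = 2 each). CD3E was 2.39-fold lower (log2 fold change -1.26, SE 0.0711, edgeR adjusted p = 5.49e-27). CD3G, the gamma chain (ENSG00000160654, chromosome 11, 118344344 to 118355161, plus strand), stood at 71.4 and 71.2 CPM against 39.7 and 37.9 CPM. This was the smallest fall of the CD3 genes, 1.84-fold (log2 fold change -0.88, SE 0.0917, edgeR adjusted p = 9.65e-14).

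CD247, the zeta chain that carries most of the complex's signalling motifs, lies apart from the others on chromosome 1 (ENSG00000198821, 167430640 to 167518610, minus strand) and fell most of the CD3 chains. It stood at 170 and 156 CPM in the wild-type pair and at 57.6 and 52.7 CPM in the libraries labelled knockout. The groups were far apart relative to their spread, with a 2.95-fold lower mean (log2 fold change -1.56, SE 0.0801, edgeR adjusted p = 1.64e-29). A pair of short same-strand rows inside CD247 held at most 4 reads each in any library. The other 9 receptor genes overlapped no further row of the table.

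The 4 CD3 chains also differed between the pairs in their mix. Per kilobase of the table's gene length, CD3D made up 56.3% and 54.1% of the summed level of the 4 chains in wild-type, against 50.7% and 52.7% for the libraries labelled knockout. CD3E went the other way, from 35.7% and 37.8% to 40.6% and 39.2%. CD3G went from 2.46% and 2.61% to 3.65% and 3.51%, and CD247 from 5.58% and 5.43% to 5.04% and 4.65%. The groups do not overlap for any of the 4 chains, but 2 libraries against 2 cannot give an exact permutation p under 0.333, and these shifts were not tested otherwise. The ratio of CD3E to CD3G had little spread within each pair and went from 14.52 and 14.49 to 11.12 and 11.16 on the per-kilobase scale.

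The alpha and beta chains moved unequally. TRAC, the alpha constant gene (ENSG00000277734, chromosome 14, 22547506 to 22552154, plus strand), stood at 98.2 and 87.3 CPM in the wild-type pair and at 86.8 and 85.4 CPM in the libraries labelled knockout. The gap between group means was smaller than the wild-type SD of 7.72 CPM (n = 2). The log2 fold change was -0.11, with a 95% interval of -0.27 to 0.05 (edgeR adjusted p = 0.230), and the interval does not reach the estimate of any other receptor gene. Wild-type replicate 2 decided this: without it, the value was -0.20 with an edgeR adjusted p of 0.00837, still a small difference.

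TRBC1, the first of the beta constant genes (ENSG00000211751, chromosome 7, 142791694 to 142793368, plus strand), stood at 162 and 150 CPM in the wild-type pair and at 30.4 and 27.1 CPM in the others. That is 5.43-fold lower (log2 fold change -2.44, SE 0.0868, edgeR adjusted p = 1.41e-39). TRBC2, its near-identical copy 7.67 kb further along (ENSG00000211772, 142801041 to 142802748), stood at 98.3 and 92.2 CPM against 34.6 and 34.4 CPM, a 2.76-fold fall (log2 fold change -1.47, SE 0.0883, edgeR adjusted p = 2.13e-25). How reads that match both copies were counted is not given, so the split between them is uncertain. Summed over both copies, the level was 260 and 243 CPM in wild-type against 65.0 and 61.5 CPM, a log2 fold change of -1.99 (SE 0.0770, edgeR adjusted p = 2.74e-37). TRBC1 took 62.2% and 62.0% of the reads of both copies in wild-type, against 46.8% and 44.1% for the libraries labelled knockout. The exact binomial 95% intervals of the groups (60.4% to 63.6% and 40.8% to 50.03%, from the lowest to the highest bound) do not overlap. Relative to TRAC, TRBC1 went from 2.12 and 2.21 times its level per kilobase to 0.450 and 0.407 times.

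**Figure D2:**
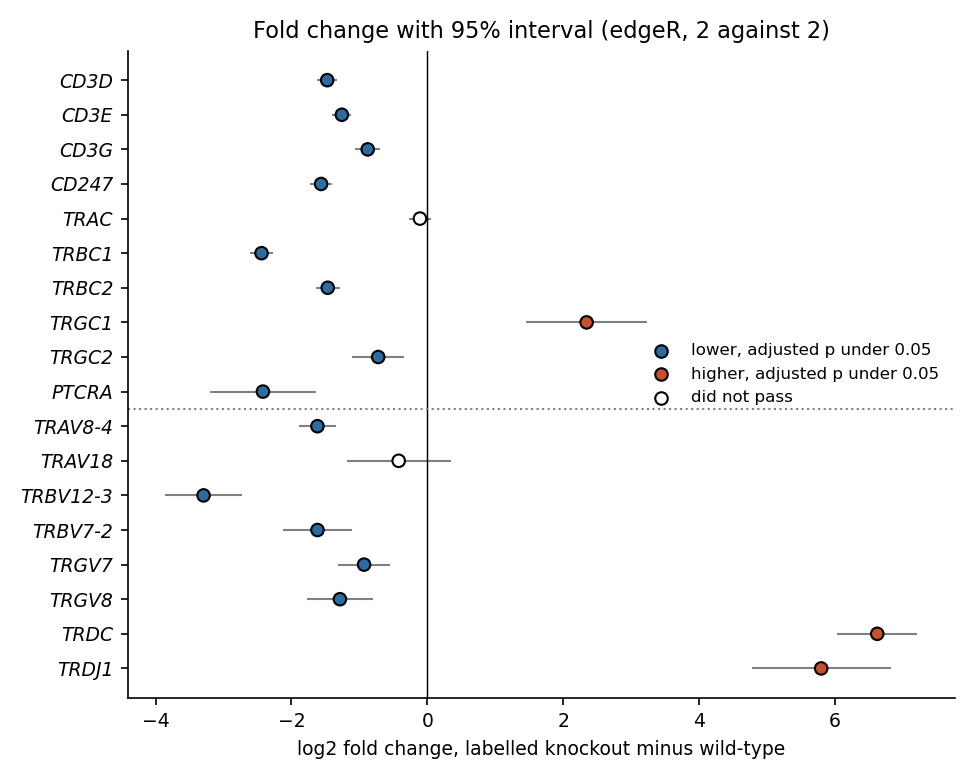
Log2 fold change (labelled knockout minus wild-type, 2 libraries each) with its 95% interval for the 10 receptor genes, above the dotted line, and for 8 other rows of the receptor loci, below it; fill gives the edgeR call. Most points lie left of zero between about -0.72 and -3.29, TRAC and TRAV18 are unfilled, and TRGC1, TRDJ1 and TRDC lie to the right.

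Alpha variable reads came mostly from the known chain of the line, and beta variable reads from several rows. The receptor of Jurkat cells uses TRAV8-4 and TRBV12-3. TRAV8-4 (chromosome 14, 21894433 to 21895030) held 668 and 596 wild-type reads and 191 and 173 reads in the libraries labelled knockout, 89.9% and 86.9% of all alpha variable reads against 81.6% and 71.5%. It was the leading alpha variable row in all 4 libraries. Its level fell from 38.3 and 37.4 CPM to 13.0 and 11.7 CPM (log2 fold change -1.62, SE 0.137, edgeR adjusted p = 9.93e-18), while the constant gene TRAC of the same locus did not pass the test. TRAV8-4 made up 28.1% and 30.0% of the reads of TRAV8-4 and TRAC together in wild-type (exact intervals within 26.3% to 32.1%) and 13.0% and 12.01% in the others (within 10.4% to 14.9%). TRAV18, the next alpha variable row, held 32 and 36 reads against 18 and 27 and did not pass (log2 fold change -0.42, edgeR adjusted p = 0.338).

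TRBV12-3 (chromosome 7, 142560423 to 142560931) held 165 and 148 wild-type reads and 14 and 14 reads in the libraries labelled knockout. From 9.47 and 9.30 CPM it fell to 0.955 and 0.944 CPM, a log2 fold change of -3.29 (SE 0.283, edgeR adjusted p = 2.12e-17). Its near-identical copy TRBV12-4 held 8 and 1 wild-type reads and 0 and 1 reads in the others. TRBV12-3 led the beta variable reads in wild-type with 42.0% and 40.4%, and held 16.5% and 12.6% in the libraries labelled knockout. There the leading row was TRBV7-2 with 22 and 53 reads (25.9% and 47.7%), against 129 and 131 reads (32.8% and 35.8%) in wild-type. TRBV7-2 fell too (log2 fold change -1.62, edgeR adjusted p = 7.09e-08). Its knockout-labelled libraries differ, and the value was -2.37 without knockout replicate 2 and -1.13 without knockout replicate 1. The rows TRBV9, with 1 and 2 reads against 6 and 17, TRBV7-3, with 4 and 9 against 15 and 5, and TRBV8-2, with 18 and 7 against 9 and 4, were too low to be tested. All 4 beta variable rows and all 5 beta joining rows that were tested were lower, as were 32.3% of all genes, and most of these rows passed the filter only through wild-type. Set against its constant gene, TRBV12-3 gave 5.53% and 5.82% of the reads of TRBV12-3 and TRBC1 in wild-type, against 3.04% and 3.37% for the others, with exact intervals that meet (lowest wild-type bound 4.74%, highest other bound 5.58%).

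The delta genes inside the alpha locus were higher in the libraries labelled knockout. TRDC, the delta constant gene (ENSG00000211829, chromosome 14, 22462932 to 22465787, plus strand), held 1 and 8 wild-type reads and 410 and 401 reads in the libraries labelled knockout. In CPM this is 0.0574 and 0.502 against 27.97 and 27.04, with the knockout-labelled libraries close together and the wild-type values resting on 9 reads. The pooled ratio was 102 with an exact 95% interval of 53.4 to 224 for counting error only, and the log2 fold change was 6.63 (SE 0.295, edgeR adjusted p = 2.91e-33). It moved when a wild-type library was left out, to 5.77 without wild-type replicate 1 and 8.70 without wild-type replicate 2. TRDJ1, a delta joining row, held 1 and 2 reads against 69 and 92 (log2 fold change 5.80, SE 0.513, edgeR adjusted p = 7.38e-17). Both TRDC and TRDJ1 passed the expression filter only through the libraries labelled knockout, which favours a difference. TRDJ3, TRDJ4 and TRDD3 had 0 wild-type reads and 13 and 6, 5 and 7, and 2 and 7 reads in the others. Set against a floor of 3 counts over both wild-type libraries, TRDJ3 came out 7.16-fold higher and TRDJ4 4.52-fold higher. These ratios take the counts of the knockout-labelled libraries as exact, so they are not lower limits. The delta variable rows stayed empty or nearly so: TRDV1 and TRDV2 had 0 reads in every library and TRDV3 had 3 reads in 1 library labelled knockout. An antisense row covering all of TRDC, AC244502.1, held 0 and 1 reads against 55 and 39. Without a known strand setting, its reads and those of TRDC cannot be told apart.

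Along the chromosome, rows of the locus moved in different directions. The 9 rows from the delta diversity segments through TRDC to TRDV3 summed to 0.115 and 0.628 CPM in wild-type and to 34.4 and 34.7 CPM in the libraries labelled knockout. TRAV8-4, 568 kb from TRDC on the far side of the delta genes, fell over the same comparison, and TRAC, 81.7 kb from TRDC on the near side, did not pass the test. The 27 variable rows between TRAV19 and the delta segments, an interval chosen after the values were seen, held 0 and 0 wild-type reads and 2 and 6 reads in the others. TRDC reads amounted to 0.0584% and 0.572% of the reads of TRDC and TRAC together in wild-type, and to 24.4% and 24.04% in the libraries labelled knockout.

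**Figure D3:**
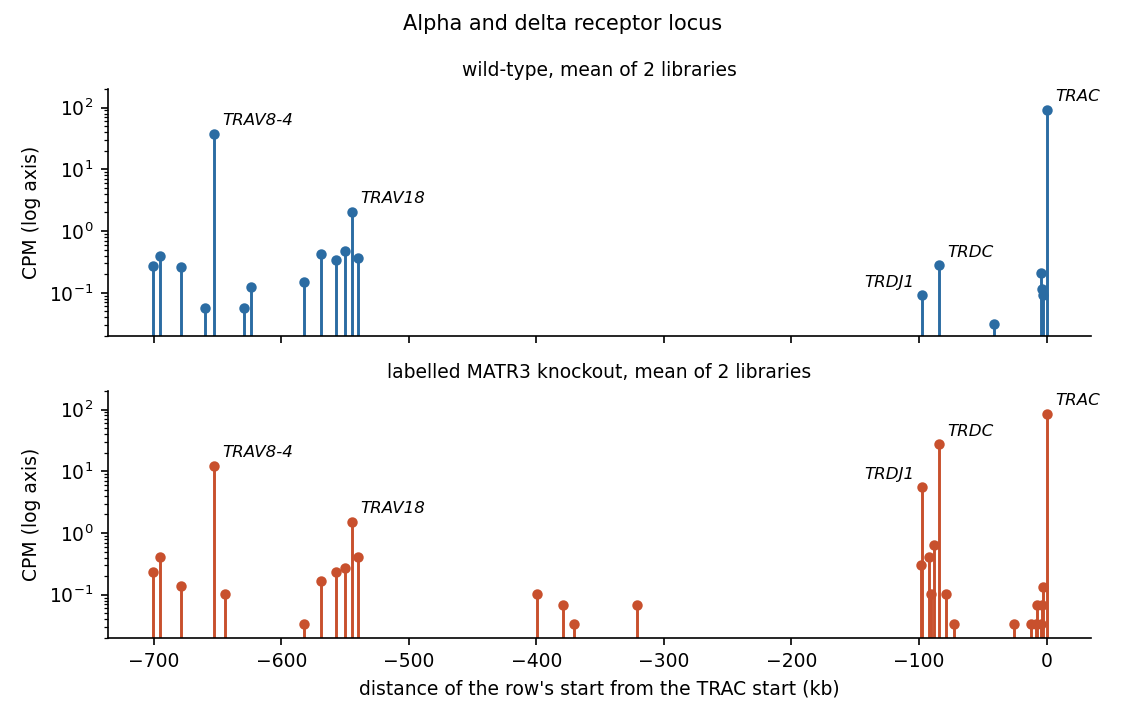
Mean CPM (log axis) of each row of the alpha and delta locus with reads, by distance of its start from the start of TRAC in kb, for wild-type (top) and the libraries labelled MATR3 knockout (bottom), 2 libraries each; rows at 0 are not drawn. TRAV8-4 and TRAC dominate the top panel, and the bottom panel adds a cluster around TRDJ1 and TRDC between them.

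The gamma constant genes moved in opposite directions. TRGC1 (ENSG00000211689, chromosome 7, 38257879 to 38265678, minus strand) held 9 and 9 wild-type reads and 38 and 44 reads in the libraries labelled knockout. At 0.517 and 0.565 CPM against 2.59 and 2.97 CPM, it was 5.14-fold higher (log2 fold change 2.35, SE 0.447, edgeR adjusted p = 4.07e-06). With 18 wild-type reads, the exact 95% interval of its pooled ratio of 5.15 ran from 3.07 to 9.12. TRGC2 (ENSG00000227191, 38239580 to 38249572, minus strand), 8.31 kb away, went from 11.2 and 10.7 CPM to 6.75 and 6.54 CPM, a 1.65-fold fall (log2 fold change -0.72, SE 0.193, edgeR adjusted p = 0.000755). These 2 genes are close copies and the same doubt about shared reads applies. Summed, they stood at 11.7 and 11.3 CPM against 9.35 and 9.51 CPM, and the log2 fold change of -0.29 (95% interval -0.65 to 0.07) did not pass (edgeR adjusted p = 0.154). TRGC1 took 4.41% and 5.00% of the reads of both in wild-type, against 27.7% and 31.2% for the others, with exact intervals of 2.04% to 9.28% and 20.4% to 39.5% from the lowest to the highest bound.

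Gamma variable rows were read in all 4 libraries, although Jurkat cells display an alpha-beta receptor. TRGV7, a pseudogene, led with 204 and 201 wild-type reads and 103 and 85 reads in the libraries labelled knockout, 40.6% and 36.2% of gamma variable reads against 44.2% and 35.4%. These shares overlap between the groups. TRGV8 came next with 108 and 150 reads against 40 and 54 (21.5% and 27.0% against 17.2% and 22.5%), and its shares overlap too. Both fell, TRGV7 by 0.93 on the log2 scale (edgeR adjusted p = 1.89e-05) and TRGV8 by 1.29 (edgeR adjusted p = 2.92e-06). TRGV4 held 31 and 20 reads against 7 and 24 and did not pass (edgeR adjusted p = 0.308). Of the 9 gamma variable rows tested, 5 were lower and none higher, against 32.3% and 33.7% of all genes.

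**Figure D4:**
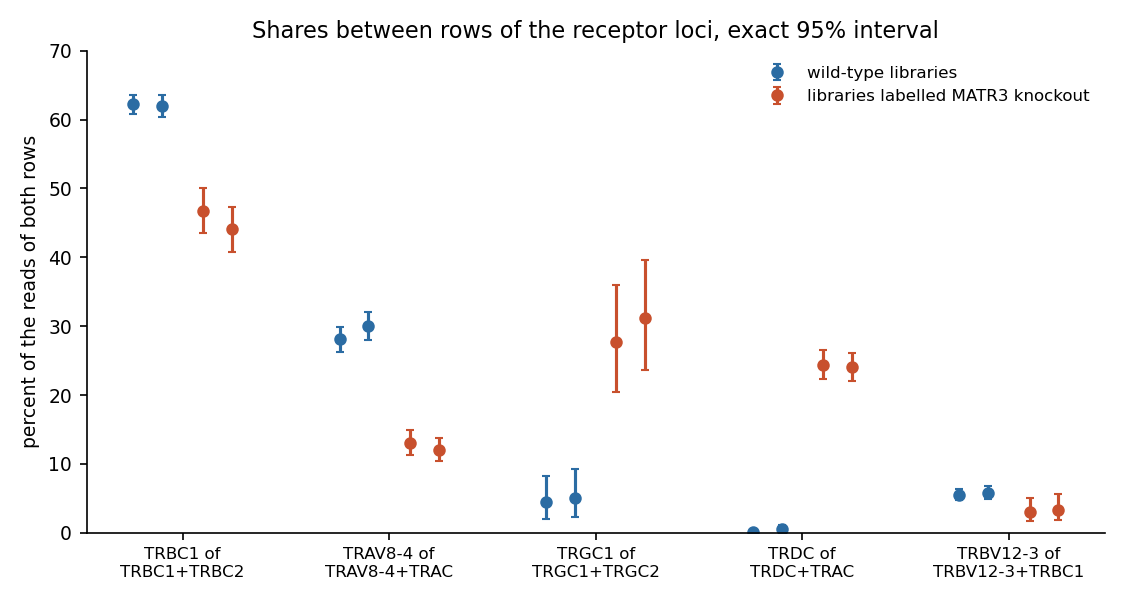
Percent of the reads of 2 rows taken by 1 of them, per library with exact binomial 95% intervals (counting error only), wild-type in blue and the libraries labelled MATR3 knockout in orange. Libraries of a group lie close together; TRBC1 and TRAV8-4 took smaller shares in orange, TRGC1 and TRDC larger ones, and the TRBV12-3 intervals meet.

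For the 5 shares plotted by library (TRBC1 of both beta constants, TRAV8-4 with TRAC, TRGC1 of both gamma constants, TRDC with TRAC, TRBV12-3 with TRBC1), the exact two-sided permutation test over the 4 libraries gave p = 0.333 each (adjusted p = 0.333 over the 5), the smallest that 2 against 2 allows. Counting all 225 rows of the alpha, beta, gamma and delta loci, 95 had at least 1 read and 27 were tested, of which 18 were lower, 3 higher and 6 neither (all genes: 32.3% lower, 33.7% higher). Without the members, 22 were tested, 15 lower, 2 higher (TRDC and TRDJ1) and 5 neither. Most rows had too few reads to test, and passing the filter only through the group in which a row is high favours a difference, so these counts describe the rows with reads only.

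PTCRA, the pre-receptor alpha chain, was a low row that fell (ENSG00000171611, chromosome 6, 42915989 to 42925835, plus strand). It held 60 and 62 wild-type reads and 13 and 7 reads in the libraries labelled knockout. These are 3.44 and 3.89 CPM against 0.887 and 0.472 CPM, 5.40-fold lower, with a log2 fold change of -2.42 (SE 0.392, edgeR adjusted p = 1.13e-07). Its fold was close to that of TRBC1, and which of these fell more depended on the library left out, but its 95% interval, -3.20 to -1.64, is far wider.

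Ordered by level per kilobase, the wild-type libraries ran CD3D (405), CD3E (269), TRBC1 (205), TRBC2 (126), TRAC (95), CD247 (40.4), CD3G (18.6), TRGC2 (10.8), PTCRA (3.14) and TRGC1 (0.198 CPM per kilobase, group means). In the libraries labelled knockout the order was CD3D (146), CD3E (113), TRAC (88.3), TRBC2 (45.5), TRBC1 (37.8), CD247 (13.7), CD3G (10.1), TRGC2 (6.56), TRGC1 (1.02) and PTCRA (0.582). TRAC moved from rank 5 to rank 3, TRBC1 from rank 3 to rank 5, and TRGC1 and PTCRA exchanged the last places. Within each group, libraries of neighbours in this order did not overlap, though the split within the TRBC and TRGC pairs is uncertain.

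Genes with the most similar pattern were sought among 10226 protein-coding genes at 5 CPM or more, by the root mean square difference of centred log2 CPM over the 4 libraries. Nearest to CD3E were HDAC1, a histone deacetylase gene (0.00982), ZNF32 and SDC3. Nearest to TRBC1 were PPP2R2C (0.0609), ABI3 and FBLN1, and nearest to TRAC were CYC1, a respiratory chain subunit gene (0.00747), SCAF4 and CC2D1A. With 4 libraries in 2 groups, the measure mainly reflects the fold change.

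Among the 60 nearest tested protein-coding genes (5 on each side of each member, each counted once), 23 were lower, 19 higher and 18 neither (median log2 fold change -0.13), near the 32.3% lower and 33.7% higher of all genes. Around the CD3 cluster, UBE4A, 4.42 kb from CD3G, was at 0.35 and KMT2A, a histone methyltransferase gene, at 0.94 on the log2 scale, while JAML, an adhesion molecule gene, fell from 8.74 ± 0.428 to 2.31 ± 0.0191 CPM (SD, n = 2 each) and TMEM25 by 1.02. Next to CD247, 5 neighbours were lower and 4 higher, with ILDR2 at -1.38 and MPZL1 at -1.21. Next to TRAC, SALL2 was at -1.05 and OXA1L, a mitochondrial insertase gene, at 0.93, with a median of 0.01. Around TRBC1 and TRBC2, 6 neighbours were lower and 3 higher (median -0.39), with CASP2, a caspase gene, at -0.83 and ZYX, the zyxin gene, at 1.62. The 10 ranged from -4.15 to 4.09, with ends that did not meet the naming rule, and TRBC1 and TRBC2 lay within this range. Next to TRGC1 and TRGC2, EPDR1 was at -1.01 and ELMO1 at -0.67, in a range of -1.01 to 2.26. Next to PTCRA, MEA1 was at -0.83 and BICRAL at 0.95. UBE4A and KMT2A were picked as examples after their values were seen.

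**Figure D5:**
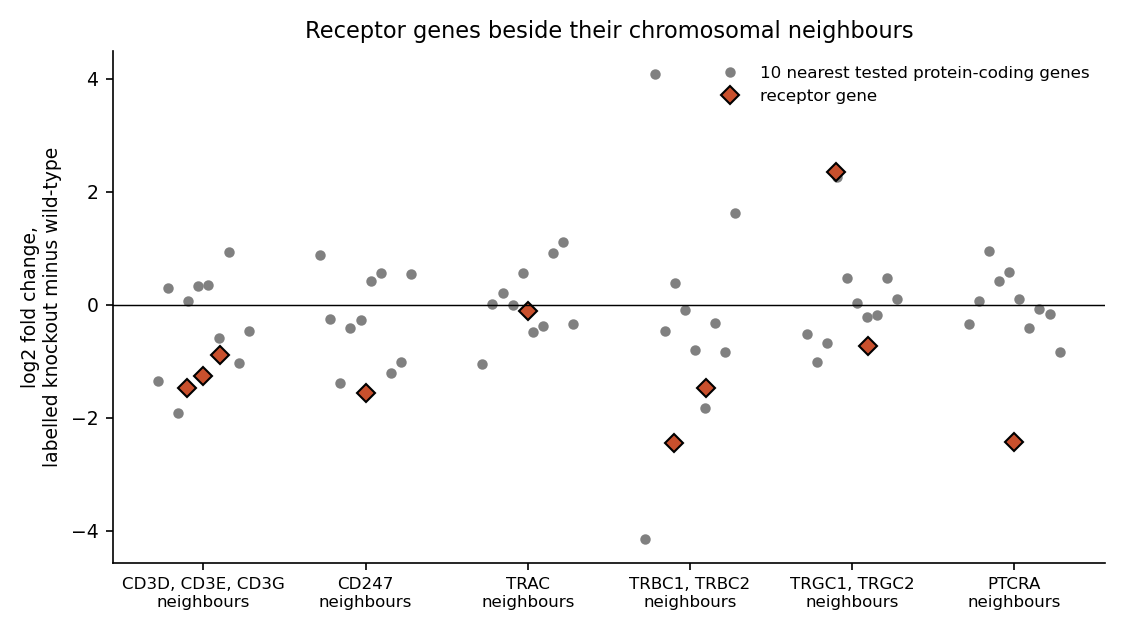
Log2 fold change (labelled knockout minus wild-type) of the receptor genes (diamonds) and of the 10 nearest tested protein-coding genes of each locus (grey dots, 5 on each side, in order along the chromosome). Neighbours scatter on both sides of zero at every locus. The PTCRA diamond at -2.42 and the CD247 diamond at -1.56 each lie under all 10 of their neighbours. The TRGC1 diamond at 2.35 lies just above the highest of its 10, at 2.26. All other diamonds lie within the range of their neighbours.

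Signalling genes immediately downstream of the receptor were mostly lower. Of 50 genes of proximal receptor signalling, all tested, 29 were lower (58.0%, against 32.3% of all genes) and 12 higher (against 33.7%), with a median log2 fold change of -0.60. SLA, an adaptor that dampens receptor signalling, went from 142 and 137 CPM to 34.9 and 40.1 CPM. GRAP2, the GADS adaptor that joins LAT to SLP-76, went from 204 and 190 CPM to 55.7 and 55.1 CPM, and DOK2, an inhibitory adaptor, from 102 and 98.7 CPM to 30.7 and 27.0 CPM. Their log2 fold changes were -1.90, -1.83 and -1.80 (edgeR adjusted p = 3.67e-33, 2.91e-34 and 6.70e-30). CD4, the coreceptor, went from 53.8 and 50.1 CPM to 559 and 544 CPM, the leading rise (log2 fold change 3.41, edgeR adjusted p = 4.26e-52). LCP2, which encodes SLP-76, went from 64.7 and 71.1 CPM to 216 and 226 CPM (log2 fold change 1.70, edgeR adjusted p = 5.37e-33).

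Genes listed for assembly and transport of the receptor were more often higher than lower. The list includes general chaperone and trafficking genes that are not particular to this receptor. Of 23 tested, 13 were higher (56.5%, against 33.7% of all genes) and 2 lower (median 0.26); the 2, RAB11A at -0.34 and SNX17 at -0.30, were named after their values were seen. The leading rises were UNC93B1, a trafficking chaperone (1.42), SEL1L, part of the degradation machinery of the endoplasmic reticulum (1.28), HSP90B1, its HSP90 chaperone (1.27), RAB5A, an early endosome GTPase (1.16), and LAPTM5, a lysosomal membrane protein that lowers surface receptor (1.03). LAPTM5 stood at 282 and 273 CPM in the wild-type pair and at 582 and 554 CPM in the libraries labelled knockout (edgeR adjusted p = 2.10e-22).

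Other signalling chains related to CD3 zeta went both ways. Of 10 listed genes of motif-bearing chains and their partners, 6 were tested, 4 higher (TYROBP, FCER1G, FCGR2A and HCST) and 2 lower (CD79A and IGLL1), against 33.7% and 32.3% of all genes. TYROBP, FCER1G and FCGR2A passed the expression filter only through the libraries labelled knockout, which favours a difference, and the count says little. TYROBP, the DAP12 adaptor of myeloid and natural killer receptors, went from 1.15 and 0.377 CPM to 36.2 and 34.4 CPM (log2 fold change 5.49, edgeR adjusted p = 1.19e-34). CD79A, a B cell receptor chain, and IGLL1, a surrogate light chain gene, fell by 1.36 and 1.04 on the log2 scale. FCER1G, the gamma chain that can pair with CD247, stood at 0.301 ± 0.0191 CPM for wild-type, against 2.31 ± 0.307 CPM (SD, n = 2 each, log2 fold change 2.91, edgeR adjusted p = 1.07e-06). FCER1G and TYROBP are also in the myeloid marker list, and TYROBP in the natural killer list.

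Of 30 transcription factors that act on the receptor loci, all tested, 13 fell and 11 rose (median -0.08), not far from the 32.3% and 33.7% of all genes. TCF7, a T lineage factor, went from 832 and 796 CPM to 354 and 356 CPM, ETS2 from 210 and 212 CPM to 68.8 and 66.9 CPM, and TOX from 80.02 and 80.08 CPM to 36.8 and 38.3 CPM. Their log2 fold changes were -1.20, -1.64 and -1.09. ELF1, an ETS factor, was at 1.25 and ID2, an inhibitor of E proteins, at 1.17. GATA3 fell by 0.23 (edgeR adjusted p = 0.0132). GATA3 was named after its value was seen.

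Of 11 tested genes of receptor gene recombination, 5 were lower, 5 higher and 1 neither, where 32.3% and 33.7% of all genes were lower and higher. DNTT, the terminal transferase that adds bases at the joins, was at -1.17 and XRCC6, the Ku70 subunit, at -0.74. At least 2-fold lower were 3 of the 11, of which DNTT alone met the naming rule. POLL and LIG4, a polymerase and the ligase of end joining, were at 1.65 and 1.10, and DCLRE1C, the Artemis nuclease, at 0.84. Among the other T cell surface markers, of which 14 of 16 were lower (87.5%, against 32.3% of all genes, median -1.11), the leading falls were CD1C (-2.20), CD1E (-1.91), CD2 (-1.69), CD1A (-1.64) and UBASH3A (-1.58), and the rise was SPN, the CD43 sialoglycoprotein (0.42). CD2, UBASH3A and several others of this list also stand in the proximal signalling list, so the lists are not independent. CD4, which rose, stands in the proximal signalling list and not in this 1.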

How the data were processed

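The authors deposited 1 table of raw read counts per gene, per the file headers, with gene name, coordinates and length, and no normalization. Per the submitters' processing notes, the tools used included HISAT2 2.0.5, CASAVA 1.8 and featureCounts 1.5.0-p3. Genome build, strand setting and treatment of reads matching several places: not given in the sources used here. Mouse is the organism label, but the rows carry human Ensembl identifiers and the line is human, so the mouse reference was not used and no sequence is printed. The 4 count columns were assigned by the short names in the sample descriptions.

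Counts were compared with edgeR 4.0.16 (R 4.3.3): TMM scaling, the default expression filter (10 counts, 15 in total), no covariate, and its quasi-likelihood F-test between the 2 groups (two-sided), p-values being adjusted by Benjamini and Hochberg's method across 15294 genes and called at 0.05. Each SE of a log2 fold change is its absolute value divided by the square root of its F statistic. The 95% intervals of log2 fold changes use this SE with a t quantile. Shares of reads carry exact (Clopper-Pearson) 95% intervals, and such exact intervals cover counting error only. Floors cover the counting error of the wild-type count alone, not that of the other libraries. Levels per length divide CPM by the deposited gene length, which the authors' table gives as another column without its derivation. Libraries of a group differed by more than sampling noise (mean chi-square of a gene 5.83 and 2.21 over genes with at least 20 reads) and were each counted. The test was also run on simulated counts. Those had the same dispersion for every gene and far fewer changed genes than called here, so that run does not vouch for these p-values.

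The members and the gene lists were chosen with earlier results of these data known. Named genes are the members, TRDC, variable rows with at least 10% of their locus's variable reads in a library with 20 or more such reads, up to 5 leading changed genes per list and up to 2 per neighbourhood at 5 CPM or more, and 3 genes of like pattern for CD3E, TRBC1 and TRAC; further examples are marked as picked later. TRDJ1, TRDJ3, TRDJ4, TRDD3, the delta variable rows and AC244502.1 were named after their values were seen, as were FCER1G, FCGR2A, HCST, CD5, CD7, SPN and the markers at 0 reads. TRADD, which only shares the letters of a receptor gene name, was left out of the loci. Alternatives were DESeq2 size factors, upper-quartile scaling, library totals, the DESeq2 1.42.0 Wald test, limma 3.58.1 voom, other filters and thresholds, a replicate block and leaving out each library.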

Additional observations from a re-analysis of the deposited data

How the results depend on the processing

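Over the 46 results recomputed, 497 of 522 alternative values kept their direction and their side of the threshold or stayed within 1.5 times of the count. Under the other scalings, tests and filters, the 8 lower receptor genes and TRGC1 kept their calls and directions. TRAC, uncalled with all libraries, ranged from -4.54e-06 to -0.20 when each library was left out, and passed only without wild-type replicate 2 (edgeR adjusted p = 0.00837). The number of lower receptor genes ranged from 8 to 9 in the same way, and the lower assembly and transport genes from 1 to 3, with 1 without knockout replicate 2. Requiring a change of at least 2-fold left 2379 higher and 1637 lower genes overall. It left 9 lower and 4 higher neighbours, 15 lower and 5 higher proximal signalling genes, 0 lower and 5 higher assembly genes, 3 lower and 4 higher transcription regulators, 3 lower and 2 higher recombination genes, and 0 higher T cell surface markers; a stricter rule can only lower such counts. With 10 neighbours on each side, 49 of 120 were lower and 39 higher. From CPM with no length, the share of the 4 CD3 chains was 27.3% in wild-type and 24.7% in the libraries labelled knockout for CD3D, 55.7% and 58.3% for CD3E, 5.18% and 7.05% for CD3G, and 11.8% and 10.0% for CD247. The replicate numbers gave no sign of pairing the libraries (correlation of deviations 0.0278 across genes), but 2 libraries per group cannot exclude it. With the replicate number as a block, 8 receptor genes were lower and 1 higher, and 5149 of all genes were higher and 4923 lower. Depth limits TRGC1, PTCRA, TRDC in wild-type and most variable rows.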
